A study of Homo sapiens with 9 samples.

Results

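The interleukin 7 receptor gene IL7R and 9 further genes of the cytokine receptor pathway it belongs to were examined in Jurkat cells carrying CRISPR/Cas9 edits aimed at EZH2. The 10 genes were listed by symbol (IL7R, IL2RG, IL2RA, IL4R, IL6ST, JAK1, JAK3, STAT5A, STAT5B and SOCS2), and all 10 were found among the 26190 usable rows of the deposited table. Jurkat cells are a long-established line from a human T-cell acute lymphoblastic leukaemia. The series holds 9 RNA-seq libraries, 3 each of unedited cells (EZH2-WT, here WT) and of the edited lines EZH2-KO1 and EZH2-KO2 (KO1 and KO2). All were grown in RPMI medium with serum and antibiotics and harvested in exponential growth, and the labels name no cytokine or drug. EZH2 is the catalytic subunit of Polycomb repressive complex 2, the enzyme behind the repressive histone mark H3K27me3, and the title of the series names sensitivity to CHK1 inhibition as its subject.

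Cytokines such as interleukins 2, 4, 7, 9, 15 and 21 act through receptors that share the common gamma chain, encoded by IL2RG, joined to a chain specific for each cytokine. The specific chains bind the kinase JAK1 and the common chain binds JAK3. After ligand binding the kinases phosphorylate STAT factors, STAT5A and STAT5B for interleukin 7, and these induce feedback inhibitors of the SOCS family. In the thymus interleukin 7 supports survival and growth of early T-cell precursors, and activating mutations of IL7R, JAK1, JAK3 and STAT5B are known in T-cell acute lymphoblastic leukaemia.

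The RefSeq promoter windows of IL7R, JAK3 and IL4R are shown because these genes had the 3 largest differences from WT among the members. Each window is 300 bases on GRCh38.p14, from 250 bases before the transcript start to 50 after it, 5′ to 3′ on the gene's strand, and capitals mark CG dinucleotides.
IL7R, chr5:35856641-35856940, plus strand: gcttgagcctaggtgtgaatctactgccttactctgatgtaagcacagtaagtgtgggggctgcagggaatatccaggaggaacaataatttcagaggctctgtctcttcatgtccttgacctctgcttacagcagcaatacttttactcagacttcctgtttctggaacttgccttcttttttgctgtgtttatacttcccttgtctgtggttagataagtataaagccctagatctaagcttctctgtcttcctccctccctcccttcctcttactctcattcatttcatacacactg
JAK3, chr19:17847933-17848232, minus strand: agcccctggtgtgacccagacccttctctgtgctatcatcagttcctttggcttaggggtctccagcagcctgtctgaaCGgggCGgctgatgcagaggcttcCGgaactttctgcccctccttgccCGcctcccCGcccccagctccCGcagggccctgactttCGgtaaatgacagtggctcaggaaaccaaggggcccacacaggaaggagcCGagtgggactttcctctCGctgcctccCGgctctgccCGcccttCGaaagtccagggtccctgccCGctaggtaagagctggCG
IL4R, chr16:27313724-27314023, plus strand: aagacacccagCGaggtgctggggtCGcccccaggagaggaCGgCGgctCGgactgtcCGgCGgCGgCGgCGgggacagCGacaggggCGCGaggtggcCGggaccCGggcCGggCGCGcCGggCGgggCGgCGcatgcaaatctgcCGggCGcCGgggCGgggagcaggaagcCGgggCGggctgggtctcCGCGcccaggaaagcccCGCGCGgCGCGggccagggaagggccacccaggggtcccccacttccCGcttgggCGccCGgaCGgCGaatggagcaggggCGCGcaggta

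The IL7R window held 0 CG dinucleotides, as few as 3.96% of the 35116 RefSeq windows of this length. The JAK3 window held 14, equal to the median of all windows, and the IL4R window held 42, a number that 95% of windows did not exceed. RefSeq windows were found for 9 of the 10 members, 13 windows in all, since JAK1 and STAT5A have 3 each, and SOCS2 was not matched. The windows of IL2RG and IL2RA held 4 CG dinucleotides each, that of IL6ST 36 and that of STAT5B 55. The JAK1 windows held 15, 9 and 43, and the STAT5A windows 3, 5 and 37. The motif GGAAGT, a core recognised by ETS factors, was searched on both strands and is present in 22.8% of all windows. It occurred in the IL7R window at 2 places, each as ACTTCC, with first bases at -98 and -55 from the start. It also occurred in the windows of IL2RA (-38) and IL4R (1) and in 1 window of JAK1 (-60). TATAAA, held by 11.5% of windows, matched in the IL7R window at -29 and, as TTTATA, at -60, where its last base is the first of the ACTTCC at -55. As TTTATA it also matched in the IL2RG window, at -86. The STAT motif TTCNNNGAA, searched on both strands and held by 7.66% of all windows, had 0 matches in the 13 member windows. The form with 4 bases between TTC and GAA, held by 6.44% of windows, matched in 1 STAT5A window, at -229.

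Levels are in FPKM, a measure of fragments corrected for the length of the transcript and the size of the library, for single libraries or as the mean ± SD of 3. Each log2 fold change is printed ± SE and was taken on log2(FPKM + 1), so that changes of low genes are understated. Fold changes come from limma, with Benjamini-Hochberg adjustment over the 11737 genes tested and adjusted p under 0.05 as the threshold. Depth in reads is unknown, and 11028 to 11415 genes per library stood at 1 FPKM or more. KO1 and KO2 are 1 line each, so p-values measure the spread between the libraries of a line, and both comparisons with WT share the same 3 WT libraries. The EZH2 transcript averaged 77.2 ± 2.54 FPKM (WT), 106 ± 2.5 (KO1) and 89.5 ± 1.4 (KO2); a value over the whole transcript does not show an edit that leaves it in place and so checks no label. All 11 listed T-lymphocyte markers reached 1 FPKM. Of the markers of other cells, CD79A and BLK of 6 for B lymphocytes, 0 of 7 for myeloid cells, HBB of 6 for erythroid cells and COL1A1 of 7 for epithelial or stromal cells did so in a library. The summed T-lymphocyte markers ran from 1540 to 1640 FPKM in WT, from 1330 to 1460 in KO1 and from 1530 to 1570 in KO2. The B-lymphocyte sums were 26.7 to 31.4, 50 to 59.5 and 19.6 to 23.0, in the same order. The myeloid sums were 0.0357 to 0.0933, 0.393 to 0.684 and 0.359 to 0.536, the epithelial or stromal sums 0.462 to 0.654, 1.54 to 2.29 and 1.37 to 1.65, and the erythroid sum was 0 except in KO1, where it reached 1.5. The part of these markers in any result below was not tested.

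In both edited lines IL7R was far lower than in WT, whereas JAK3, IL4R, SOCS2 and STAT5A were higher, with the IL7R and JAK3 differences larger in KO1. STAT5B was lower in KO1, and IL2RG fell more in KO1 than in KO2. Of the 10 members, 9 were tested, since IL2RA was under 1 FPKM in all 9 libraries. IL7R was at 1 FPKM or more in 8 of the 9 libraries, and the 8 other tested members in all 9. In KO1 5 members were higher and 4 lower, beside 67.5% of all tested genes that passed in either direction, 35.6% higher and 31.9% lower. In KO2 5 were higher, 3 were lower and STAT5B did not pass, beside 64.7% of all genes, 38.1% higher and 26.6% lower. Of all genes called in KO2, 58.9% were higher, against 50.8% after quantile normalization and 52.9% after centring on medians, and the members' counts were 5 and 3 under each. With such shares a call alone says little of a member, and the sizes are given for each. The median log2 fold change of the tested members was 0.19 in KO1 and 0.24 in KO2, against 0.02 and 0.06 over all tested genes.

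**Figure D1:**
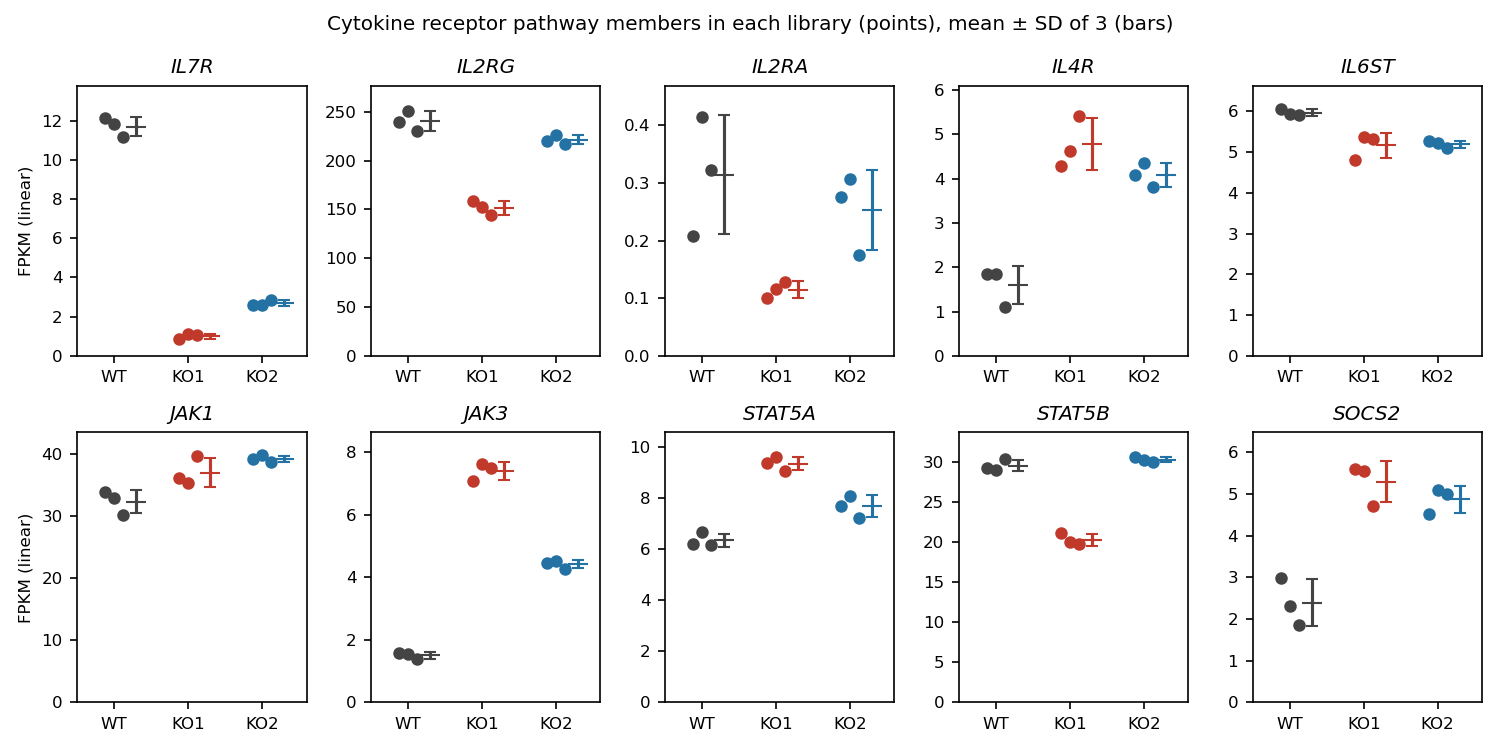
FPKM of each member (linear axis from 0, 1 panel per gene) in the 3 libraries of WT, KO1 and KO2 (points), with mean ± SD beside them. IL7R lies between 11.2 and 12.1 in WT and at 2.87 or less in every edited library, while JAK3 lies between 1.38 and 1.58 in WT and at 4.26 or more in the edited libraries.

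IL7R, which encodes the alpha chain that binds interleukin 7, stood at 12.1, 11.8 and 11.2 FPKM in the WT libraries. It stood at 0.840, 1.11 and 1.04 in KO1 and at 2.599, 2.62 and 2.87 in KO2. All edited libraries were below all WT libraries, and the 2 edited lines did not overlap either. The mean was 11.7-fold lower in KO1 than in WT (log2 fold change -2.67 ± 0.08, limma adjusted p = 7.65e-10) and 4.34-fold lower in KO2 (-1.78 ± 0.08, adjusted p = 2.02e-08). With a pseudocount of 0.1 the log2 fold changes were -3.43 and -2.08. Between the edited lines the mean was 2.71-fold higher in KO2 (0.89 ± 0.08, adjusted p = 1.56e-05). The order of the levels was thus WT, KO2 and KO1, with each step beyond the spread of the libraries.

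IL2RG, the common gamma chain, was the most abundant member per length in every library. It stood at 240.0, 250.6 and 230 FPKM in WT, at 158, 152 and 144 in KO1 and at 220.3, 226 and 217 in KO2. The KO1 libraries were below all others, and the KO2 libraries lay just under the lowest WT library. The fall was 1.58-fold in KO1 (-0.66 ± 0.04, limma adjusted p = 3.46e-07). In KO2 the mean was 1.09-fold lower (-0.12 ± 0.04, adjusted p = 0.0398), a call that 8 of 19 alternatives did not keep (their adjusted p-values, all 19 counted, lay between 0.0123 and 0.147), among them those without WT replicate 1 or 2, KO1 replicate 2 or any KO2 replicate. The ratio of IL2RG to IL7R, computed within each library, was 20.5 ± 0.704 in WT, 155 ± 29 in KO1 and 82.3 ± 5.83 in KO2.

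IL4R, the specific chain of the interleukin 4 receptor, moved opposite to IL7R. It stood at 1.85, 1.85 and 1.10 FPKM in WT, at 4.29, 4.63 and 5.42 in KO1 and at 4.08, 4.36 and 3.81 in KO2. Every edited library was above every WT library, and the edited lines overlapped. The mean was 2.99-fold higher in KO1 (1.16 ± 0.12, limma adjusted p = 1.21e-05) and 2.56-fold higher in KO2 (0.98 ± 0.12, adjusted p = 5.14e-05).

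IL6ST encodes gp130, the signalling chain shared by receptors for interleukin 6, LIF and oncostatin M, which is a separate family from that of the gamma chain. It stood at 6.07, 5.94 and 5.90 FPKM in WT, at 4.82, 5.36 and 5.31 in KO1 and at 5.26, 5.22 and 5.09 in KO2. All edited libraries lay below WT, by a small step. The log2 fold change was -0.18 ± 0.06 in KO1 (limma adjusted p = 0.0225) and -0.17 ± 0.06 in KO2 (adjusted p = 0.0285). In KO1 the adjusted p was 0.0522 with WT replicate 1 left out and 0.0886 with KO1 replicate 1 left out. The KO2 call was lost with the replicate number as a block (adjusted p = 0.0535) and without any single WT or KO2 replicate (0.0520 to 0.0788).

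IL2RA, the alpha chain of the high-affinity interleukin 2 receptor and a marker of T-cell activation, was near the lower end of the scale in every library. It stood at 0.207, 0.413 and 0.322 FPKM in WT, at 0.0996, 0.116 and 0.129 in KO1 and at 0.276, 0.306 and 0.174 in KO2. The KO1 values were all below the WT values, and those of KO2 overlapped with WT. In a fit with no filter on low values (18182 genes) the KO1 difference was -0.23 ± 0.06 (limma adjusted p = 0.0123) and the KO2 difference -0.07 ± 0.06 (adjusted p = 0.425).

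JAK3, the kinase bound to the gamma chain, had the largest rise among the members. It stood at 1.58, 1.55 and 1.38 FPKM in WT, at 7.06, 7.60 and 7.49 in KO1 and at 4.46, 4.53 and 4.26 in KO2. The 3 groups did not overlap. The mean was 4.91-fold higher in KO1 than in WT (1.74 ± 0.07, limma adjusted p = 5.5e-09) and 2.94-fold higher in KO2 (1.11 ± 0.07, adjusted p = 2.03e-07). JAK3 was 1.67-fold lower in KO2 than in KO1 (-0.63 ± 0.07, adjusted p = 6.77e-05).

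JAK1, the kinase bound to the specific chains, was far more abundant and moved little. It stood at 33.9, 32.9 and 30.2 FPKM in WT, at 36.0, 35.3 and 39.6 in KO1 and at 39.1, 39.7 and 38.7 in KO2. The edited libraries were all above WT, with a rise of 0.19 ± 0.06 in KO1 (limma adjusted p = 0.011) and of 0.27 ± 0.06 in KO2 (adjusted p = 0.00138). The ratio of JAK1 to JAK3 was 21.5 ± 0.3 in WT, 5.01 ± 0.33 in KO1 and 8.89 ± 0.175 in KO2.

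**Figure D2:**
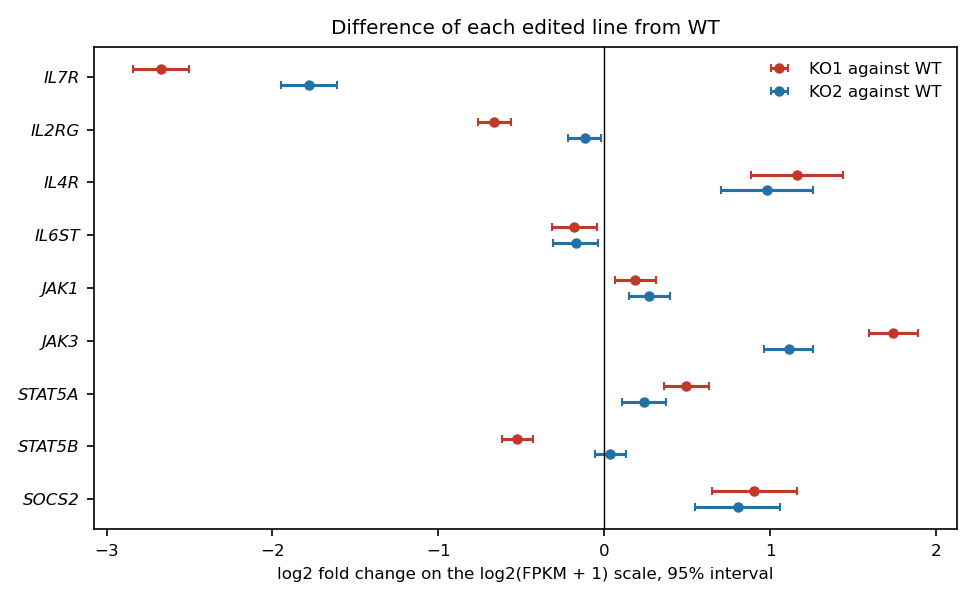
Log2 fold change (log2(FPKM + 1) scale, x axis) of the 9 tested members in KO1 (red) and KO2 (blue) against WT, with 95% intervals from the moderated fit. IL7R lies at -2.67 and -1.78, JAK3 at 1.74 and 1.11, and the KO2 interval of STAT5B includes 0.

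STAT5A and STAT5B, neighbouring genes whose products are closely related transcription factors, moved in opposite directions in KO1. STAT5A stood at 6.20, 6.66 and 6.19 FPKM in WT, at 9.39, 9.61 and 9.09 in KO1 and at 7.72, 8.10 and 7.25 in KO2. The 3 groups did not overlap, and the rise was 0.50 ± 0.06 in KO1 (limma adjusted p = 3.2e-05) and 0.24 ± 0.06 in KO2 (adjusted p = 0.00499).

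STAT5B stood at 29.3, 29.1 and 30.3 FPKM in WT, at 21.1, 19.98 and 19.7 in KO1 and at 30.7, 30.2 and 30.1 in KO2. The KO1 libraries were below all others, whereas WT and KO2 overlapped. The fall in KO1 was 1.46-fold (-0.52 ± 0.04, limma adjusted p = 1.43e-06), and the KO2 difference was 0.04 ± 0.04 (adjusted p = 0.477, 95% interval -0.06 to 0.13). The ratio of STAT5B to STAT5A was 4.66 ± 0.277 in WT, 2.17 ± 0.0845 in KO1 and 3.95 ± 0.207 in KO2. Their summed level was 35.9 ± 0.562 FPKM (WT), 29.6 ± 0.833 (KO1) and 38.0 ± 0.596 (KO2). The coding sequences of these genes are alike, and how reads shared between them were assigned is not given in the sources used here, so the split between them is less certain than the level of a gene without a close copy.

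SOCS2, a feedback inhibitor of cytokine signalling that STAT5 induces, stood at 2.99, 2.32 and 1.86 FPKM in WT. It stood at 5.61, 5.56 and 4.72 in KO1 and at 4.51, 5.09 and 5.01 in KO2. Every edited library exceeded every WT library, and KO1 and KO2 overlapped. The mean was 2.22-fold higher in KO1 (0.90 ± 0.12, limma adjusted p = 4.63e-05) and 2.04-fold higher in KO2 (0.80 ± 0.12, adjusted p = 0.000127).

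**Figure D3:**
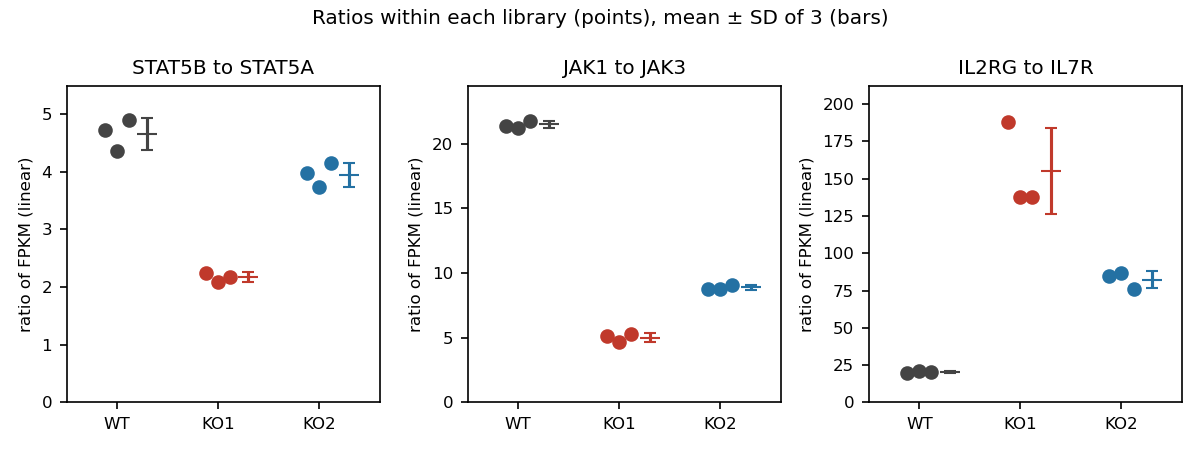
Ratio of FPKM of STAT5B to STAT5A, JAK1 to JAK3 and IL2RG to IL7R (linear axes from 0) in each library of WT, KO1 and KO2 (points), with mean ± SD. STAT5B to STAT5A is 4.66 in WT and 2.17 in KO1 on average, and the groups do not overlap for any of the 3 ratios.

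Compared directly, the edited lines differed in 5 of the 9 tested members, beside 30.6% of all tested genes. IL7R, IL2RG and STAT5B were higher in KO2 than in KO1 (18.3% of all genes were) and JAK3 and STAT5A lower (12.4%). Of all genes called here, 59.7% were higher in KO2, against 49% after quantile normalization and 47.9% after centring on medians, and the members' counts were 3 and 2 under each. IL2RG differed by 0.54 ± 0.04 (limma adjusted p = 1.2e-05), STAT5B by 0.56 ± 0.04 (adjusted p = 7.42e-06) and STAT5A by -0.25 ± 0.06 (adjusted p = 0.00927). IL4R, IL6ST, JAK1 and SOCS2 did not pass. Their 95% intervals were -0.46 to 0.09 for IL4R, -0.13 to 0.14 for IL6ST, -0.04 to 0.21 for JAK1 and -0.36 to 0.16 for SOCS2.

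The order of the members' levels, which FPKM allows per length, shifted around IL7R. IL2RG, JAK1 and STAT5B held the first 3 places in each line, with JAK1 and STAT5B overlapping in WT. IL7R was in place 4 in WT, above STAT5A, and in place 9 in both edited lines, above IL2RA alone. JAK3 was in place 9 in WT, overlapping with IL4R, and in place 5 in KO1, above SOCS2, IL6ST and IL4R, which overlapped with one another. In KO2 IL6ST overlapped with SOCS2, SOCS2 with JAK3 and JAK3 with IL4R, and IL4R stood above IL7R without overlap.

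Among 9215 tested genes outside the list with a group mean of at least 5 FPKM, the 5 whose log2(FPKM + 1) followed IL7R most closely over the 9 libraries were ITGAL, SCN3A, OGT, THEMIS and CEP128. Pearson's r ran from 0.997 to 0.999. The 9 libraries form 3 groups, so r mainly reflects 3 group means. In the order WT, KO1, KO2, ITGAL, the alpha chain of the integrin LFA-1, averaged 39.0 ± 0.274, 4.24 ± 0.169 and 9.04 ± 0.271 FPKM. THEMIS, a thymocyte selection gene, stood at 91.2 ± 9.73, 7.05 ± 0.447 and 17.5 ± 1.78. SCN3A, a sodium channel gene, stood at 6.65 ± 0.305, 0.600 ± 0.0356 and 1.78 ± 0.133. CEP128, a centrosomal protein gene, stood at 15.9 ± 0.586, 3.48 ± 0.0994 and 5.44 ± 0.108. The glycosyltransferase gene OGT fell less, from 64.9 ± 1.43 to 42.2 ± 0.8 and 48.8 ± 0.254.

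The genes next to each member were examined by RefSeq order, which placed 92% of the tested genes. Beside the counts that follow, 35.6% of all tested genes were higher and 31.9% lower in KO1, and 38.1% and 26.6% in KO2. Of the 20 tested genes nearest to IL7R on chromosome 5, 12 rose and 4 fell in KO1, with a median log2 fold change of 0.28 and a lowest value of -0.31, so IL7R at -2.67 stood below all of them. In KO2 11 rose and 4 fell, with a lowest value of -0.28 against -1.78 for IL7R. The highest values were 2.57 in KO1 and 1.68 in KO2. LIFR, a receptor gene described below, is 1 of these neighbours, at 2.19 in KO1 and 1.68 in KO2. JAK3 and IL4R stood above all 20 of their neighbours in both lines: the highest neighbour of JAK3 was at 0.21 in KO1 and 0.45 in KO2, and that of IL4R at 0.66 and 0.46.

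IL2RG lay within its neighbourhood on chromosome X. There 15 of 20 genes fell and 1 rose in KO1, with a median of -0.45 against -0.66 for IL2RG. OGT (-0.61), named above for its likeness to IL7R, is 1 of them. In KO2 10 fell and 2 rose, with a median of -0.18 against -0.12 for IL2RG. JAK1 lay near the median of its neighbours on chromosome 1, of which 13 rose and 0 fell in KO1 (median 0.28, JAK1 0.19). In KO2 11 rose and 0 fell (median 0.25, JAK1 0.27). The tested genes directly beside it, RAVER2 and AK4, rose more than JAK1, by 1.45 and 0.85 in KO1 and by 1.17 and 0.59 in KO2. LEPR, a receptor gene described below, is 1 of the JAK1 neighbours, at 0.75 in KO1 and 0.03 in KO2. Whether copy number or a regional difference takes part around IL2RG or JAK1 was not tested. IL6ST went against its neighbours on chromosome 5, of which 12 were higher and 0 lower in KO1 and 14 higher and 1 lower in KO2.

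**Figure D4:**
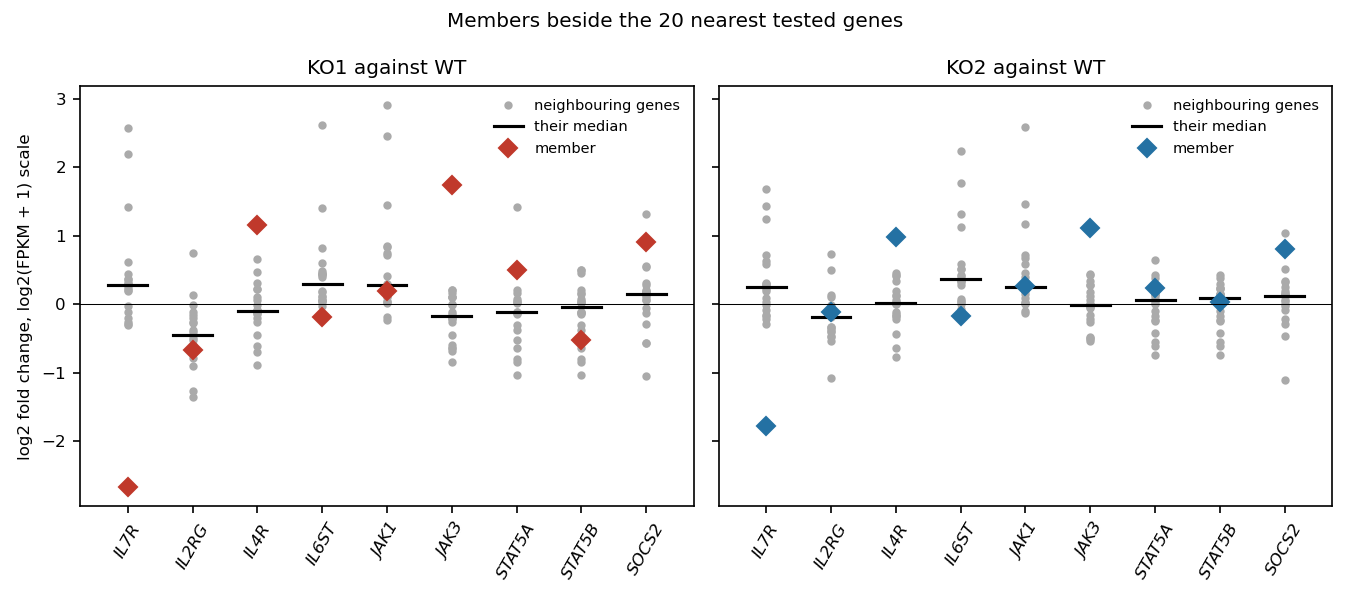
Log2 fold change (log2(FPKM + 1) scale, y axis) of each tested member (diamonds) and of the 20 nearest tested genes by RefSeq order (grey points, bar at their median) in KO1 and KO2 against WT. IL7R lies below all its neighbours, at -2.67 and -1.78, whereas IL2RG and JAK1 lie among theirs.

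Beyond the members, 131 further genes of cytokine signalling were listed by role, and 79 of them were tested. In KO1 30 were higher and 32 lower, and in KO2 25 were higher and 29 lower. Their median was -0.03 in KO1 and -0.04 in KO2. Beside these counts and those of each list below, 35.6% of all tested genes were higher and 31.9% lower in KO1. In KO2 the shares were 38.1% and 26.6%.

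Of 34 other receptor chains 13 were tested, with 5 higher and 6 lower in KO1 and 3 higher and 4 lower in KO2 (medians -0.12 and -0.07). Among genes at 5 FPKM or more 6 chains were tested, of which 0 were higher in either line and 4 were lower in KO1. The chains called higher were thus low genes. IL9R, the specific chain for interleukin 9 and another partner of the gamma chain, fell from 8.81 ± 1.05 FPKM in WT to 2.40 ± 0.187 in KO1 and 5.73 ± 0.566 in KO2; it has near-identical pseudogene copies, so its values are uncertain. IL2RB, the chain shared by interleukins 2 and 15, rose from 0.258 ± 0.0981 to 1.11 ± 0.212 and 1.36 ± 0.16. LIFR, the LIF receptor, rose from 0.0970 ± 0.0268 to 4.01 ± 0.454 and 2.51 ± 0.129 (limma adjusted p = 7.68e-09 and 7.78e-08), and CNTFR, the ciliary neurotrophic factor receptor, from 0.0288 ± 0.0251 to 1.34 ± 0.0312 and 0.301 ± 0.21. The CNTFR call in KO2 (0.33, adjusted p = 0.0286) was lost without any single WT replicate or KO2 replicate 1 and after scaling. LEPR, the leptin receptor, rose in KO1 from 1.71 ± 0.204 to 3.53 ± 0.104 and stood at 1.76 ± 0.168 in KO2. The interferon receptor gene IFNAR2 fell from 58.3 ± 4.19 to 37.6 ± 0.672 and 37.3 ± 2.43, and the erythropoietin receptor EPOR from 3.83 ± 0.607 to 2.22 ± 0.283 and 2.201 ± 0.325.

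Of 25 ligand genes only TSLP and IL23A were tested, and IL2, IL7, IL9 and IL21 were listed at 0 in all 9 libraries. IL15, under 1 FPKM throughout and not tested, averaged 0.728 ± 0.14 in WT, 0.0761 ± 0.0588 in KO1 and 0.151 ± 0.0953 in KO2. IL12A, also under 1 FPKM, went the other way, from 0 in all WT libraries to 0.285 ± 0.0606 in KO1 and 0.0863 ± 0.0393 in KO2. With no filter on low values 16 ligands were tested. Of these 1 was higher and 2 lower in KO1, and 3 were higher and 2 lower in KO2. IL4 was above 0 only in KO2 replicate 3 (0.419 FPKM). TSLP, a cytokine that signals through the IL7R chain together with CRLF2, fell from 7.42 ± 0.661 FPKM to 2.65 ± 0.244 in KO1 and 2.99 ± 0.326 in KO2 (limma adjusted p = 7.31e-07 and 2.32e-06). CRLF2 was listed at 0 in all libraries. IL23A did not pass in either line.

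Among the other kinases and STAT genes, STAT3, which gp130 activates, rose from 33.3 ± 0.604 FPKM to 46.0 ± 1.12 and 37.2 ± 0.326. STAT2, a factor of interferon signalling, fell from 9.26 ± 0.307 to 5.80 ± 0.385 and 5.90 ± 0.301. STAT4, which interleukin 12 activates, fell in KO1 from 1.53 ± 0.156 to 0.734 ± 0.142 and stood at 1.22 ± 0.0908 in KO2. The kinase gene TYK2 fell from 19.4 ± 0.695 to 15 ± 0.614 and 16.6 ± 0.764.

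Of 18 feedback and negative regulators 17 were tested, with 6 higher and 7 lower in each line (medians -0.03 in both). CISH, like SOCS2 a STAT5-induced inhibitor, rose from 0.889 ± 0.208 FPKM to 1.60 ± 0.374 and 1.88 ± 0.384. Its KO1 call (0.46, limma adjusted p = 0.0121) was lost without KO1 replicate 2 (adjusted p = 0.0521) and after quantile normalization (0.125). SOCS6 rose from 4.09 ± 0.478 to 6.81 ± 0.465 and 6.10 ± 0.242. SOCS3, an inhibitor of gp130 signalling, rose in KO1 from 0.502 ± 0.177 to 1.41 ± 0.112 and stood at 0.560 ± 0.134 in KO2. The phosphatase gene PTPRC (CD45) fell from 80.2 ± 5.51 to 48.9 ± 1.62 and 52.8 ± 0.923, and the ubiquitin ligase CBL from 27.4 ± 1.69 to 17.9 ± 0.232 and 17.6 ± 0.418.

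Of 16 genes known as STAT5 targets 10 were tested, with 5 higher and 3 lower in KO1 and 4 higher and 4 lower in KO2 (medians 0.16 and 0.05). The cyclin CCND2 rose from 0.449 ± 0.125 FPKM to 28.0 ± 1.34 and 14.95 ± 0.212 (log2 fold change 4.32 ± 0.07 in KO1, limma adjusted p = 3.15e-11, and 3.46 ± 0.07 in KO2, adjusted p = 1.81e-10). CCND3 fell, from 73.8 ± 3.76 to 43.7 ± 0.762 and 51.7 ± 2.28. The survival gene BCL2 rose from 6.83 ± 0.515 to 16.1 ± 0.173 and 15.7 ± 0.325, and MYC from 71.1 ± 3.65 to 141 ± 4.32 and 144 ± 5.33. These genes have many other regulators, and no measure of STAT5 activity is part of the series.

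All 16 genes of the adaptor, PI3K and RAS arm were tested, with 5 higher and 5 lower in KO1 and 5 higher and 4 lower in KO2 (medians -0.06 and -0.04). PIK3CG, a catalytic PI3K subunit, fell from 12.8 ± 0.681 FPKM to 6.22 ± 0.29 and 6.46 ± 0.288, and the endosomal adaptor STAM from 28.1 ± 0.766 to 20.2 ± 0.55 and 17.9 ± 0.765. GAB2, a docking protein, rose from 2.499 ± 0.0183 to 3.79 ± 0.0249 and 3.94 ± 0.476. IRS2, an adaptor used by the interleukin 4 receptor, rose from 0.280 ± 0.0499 to 1.25 ± 0.16 and 0.627 ± 0.0987, and its KO2 direction turned after quantile normalization (-0.14).

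Of 18 transcription factors known to act on IL7R 16 were tested, with 7 higher and 6 lower in KO1 and 6 of each in KO2 (medians 0.01 and -0.03). FOXO1, an activator of IL7R in lymphocytes, rose from 0.817 ± 0.12 FPKM to 4.35 ± 0.0424 in KO1 and 3.13 ± 0.063 in KO2 (limma adjusted p = 2.34e-08 and 2.61e-07). KLF2, a FOXO1 target and T-cell quiescence factor, rose from 2.54 ± 0.586 to 11.5 ± 2.81 and 8.86 ± 0.598. GABPB1, a partner of the ETS factor GABPA, rose from 13.9 ± 0.241 to 31.8 ± 1.05 and 24.0 ± 1.49. GABPA itself, at 15.95 ± 1.34, 15.7 ± 1.05 and 14.9 ± 2.13, did not pass in either line. GFI1, a repressor of IL7R in T cells, fell from 20.4 ± 1.72 to 9.76 ± 0.298 and 12.01 ± 0.569.

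**Figure D5:**
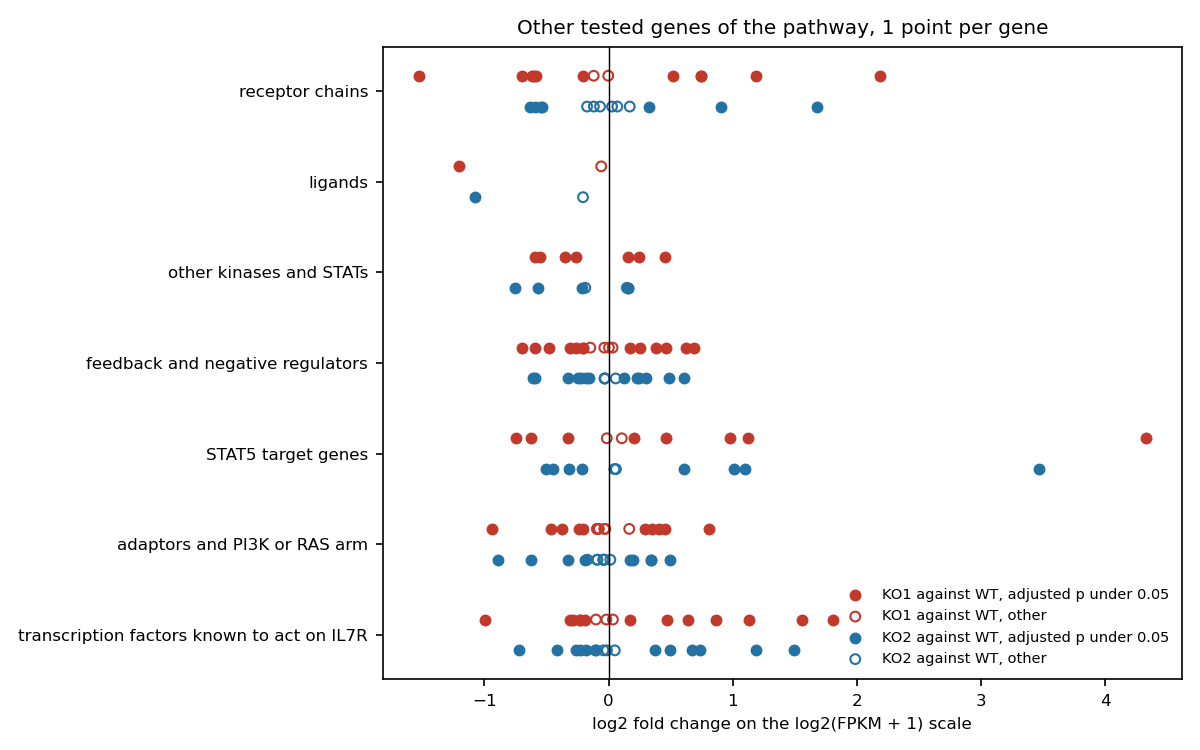
Log2 fold change (log2(FPKM + 1) scale, x axis) of the tested genes of 7 pathway lists outside the members in KO1 (red) and KO2 (blue) against WT, 1 point per gene, filled where the adjusted p is under 0.05; a gene in 2 lists is drawn in both. Most points lie within 1 of 0, and CCND2 lies at 4.32 and 3.46.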

How the data were processed

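RNA from 9 Jurkat cultures was sequenced after poly(A) selection. The authors deposited 1 table of FPKM values with a column per library; its header names no unit, which was taken from Cufflinks in the submitters' processing notes and from the values. These notes name STAR 2.5.0b, Cufflinks 2.2.1, bedtools 2.7.0 and hg19, without role or order; the sources used here give neither annotation nor strand setting. Of 26228 rows, 38 holding text were left out. FPKM sums ran from 417737 to 439704 per library. Values are not counts, so no counting interval is given.

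Genes at 1 FPKM or more in 3 libraries were fitted as log2(FPKM + 1) with limma 3.58.1 in R 4.3.3 (1 mean per group, all 9 libraries, mean-variance trend, no covariates), and the fit was tested on simulated data. Members, lists and naming rule were chosen with earlier results of these data known. Named genes were the members, EZH2, per list up to 4 passing genes with the largest fold change in each line, and the 5 genes most like IL7R. GABPA, CRLF2, the ligand genes other than TSLP, BCL2L1, MYB, RAVER2 and AK4 were named outside this rule. All listed symbols matched the table; 1 gene that the rule names is not reported here. Ratios, neighbouring genes and promoter motifs were chosen after values were seen. Replicate numbers did not pair the libraries. Alternatives were other pseudocounts, filters, scalings, moderation, fits of 2 groups, a replicate block and leaving out each library.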

Additional observations from a re-analysis of the deposited data

Results flagged for a closer look

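The differences from WT were unequal in the edited lines, by the direct test of KO2 against KO1 with limma (adjusted p under 0.05), for 5 members. The difference, KO2 minus KO1 on the log2 scale, was 0.89 for IL7R, 0.54 for IL2RG, 0.56 for STAT5B, -0.63 for JAK3 and -0.25 for STAT5A.

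Among the other pathway genes named above, the difference by the same test was positive for IL9R (0.98), STAT4 (0.36), GFI1 (0.27) and CCND3 (0.24). It was negative for CCND2 (-0.86), CNTFR (-0.86), LEPR (-0.72), SOCS3 (-0.63), LIFR (-0.51), IRS2 (-0.46), GABPB1 (-0.39), FOXO1 (-0.37), STAT3 (-0.3) and STAM (-0.17). The STAM difference was lost without KO1 replicate 2 or 3 or KO2 replicate 1 or 2, and that of STAT4 without KO2 replicate 3. Of all tested genes 30.6% passed this test. The pathway genes were named for large differences from WT in these same libraries, some in KO1 only, so their differences between the lines are a description. CNTFR, SOCS3 and IRS2 reached 1 FPKM in KO1 libraries alone, so the filter kept them only through the line where they were high. STAT4 was under 1 FPKM in all KO1 libraries and was kept through WT and KO2.

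The test also passed for EZH2 (-0.24) and for the listed genes BCL2L1 (-0.52) and MYB (-0.37), which were singled out after their values were seen. ITGAL (0.94), SCN3A (0.79), OGT (0.2), THEMIS (1.2) and CEP128 (0.52) were chosen for following IL7R over these libraries, so their direction here was set by that choice and their values are a description.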

How the results depend on the processing

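Of 27 member comparisons, 22 kept their direction and side of the threshold under all alternatives run for them, at most 19 each. The exceptions were IL6ST in all 3 comparisons, IL2RG in KO2 and STAT5B in KO2, whose value near 0 became -0.0083 after median centring. IL6ST between the edited lines changed sign, to -0.0334 after quantile normalization and -0.0272 after median centring, and lay between -0.0341 and 0.0307 when single libraries were left out. The number of members lower in KO2 was 3, and 1 to 3 when single libraries were left out. Among genes at 5 FPKM or more, 18 in place of 30 other pathway genes were higher in KO1 and 9 in place of 18 lower in KO2 against KO1, with 61 in place of 79 tested. After quantile normalization CNTFR in KO2 was at -0.0175 and IRS2 at -0.1403. With the replicate number as a block, 5 members were higher and 4 lower in KO1, and 5 higher and 2 lower in KO2; same-numbered libraries correlated between -0.287 and 0.318, so the numbers give no pairing. The block changed the IL6ST call in KO2 and no other member call. IL4R was not tested at 5 FPKM or more. FPKM give no read depth, which limits values under 1 FPKM, such as IL2RA. LIFR, IL2RB, CNTFR, SOCS3, IRS2, CCND2 and FOXO1 were under 1 FPKM in all WT libraries. The filter therefore kept them only through edited libraries, in which they were higher.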

Other observations

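A further 2 listed genes outside the naming rule stood apart, and they were singled out after their values were seen. BCL2L1, a survival gene among the STAT5 targets, passed in opposite directions: its mean was 43.4 ± 0.402 FPKM (WT), 50.2 ± 1.49 (KO1) and 34.7 ± 1.25 (KO2), and KO2 differed from KO1 by -0.52 (limma adjusted p = 9.57e-06). MYB, a transcription factor of immature T cells and of many T-cell leukaemias, averaged 158 ± 5.44 FPKM (WT), 289.9 ± 11.9 (KO1) and 223.5 ± 1.88 (KO2), and passed in all 3 comparisons.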
